A study of Mus musculus with 6 samples.

Results

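The genes described here build, move, sense and destroy sphingosine-1-phosphate (S1P), a signalling lipid of blood and lymph: the receptors S1pr1 to S1pr5, the sphingosine kinases Sphk1 and Sphk2, the exporters Mfsd2b and Spns2, and the lyase Sgpl1. They were measured on Affymetrix arrays in megakaryoerythroid progenitors (MEP), which mature in bone marrow into red cells or into the megakaryocytes that shed platelets. A gene was taken where a probe set of the array carried its symbol and no other, and where a gene had several such probe sets the one of highest mean over the 6 arrays stood for it. All 10 genes were found, each with 1 probe set, among 22180 genes with a single symbol and 41345 probe sets in all. The probe sets did not share their 6 values with any other probe set.

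Per the labels, 3 arrays hold RNA of T-bet knockout mice and 3 of wild-type mice, all of the C57BL/6 strain, and MEP were sorted by flow cytometry from fresh whole bone marrow. Tbx21 codes for T-bet, which directs the T helper 1 and natural killer (NK) cell programmes. The labels name no treatment, age or sex, neither the knockout allele nor the antibodies of the sort, and they describe the arrays of a group as different mice. The question put to these genes is whether their transcripts differ between progenitors with and without T-bet.

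S1P is made inside cells by the sphingosine kinases, leaves them through dedicated exporters, and acts on G protein-coupled receptors of neighbouring or circulating cells. Red cells, platelets and endothelium keep its level high in blood and lymph, while the lyase keeps it low inside tissues, and the resulting gradient guides lymphocytes out of lymphoid organs and bone marrow. S1pr5 is the receptor that NK cells use to leave bone marrow and lymph nodes, and T-bet is known to drive its expression there.

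Values are log2 signals as deposited, ± gives the SD among a group's 3 arrays, and a difference is knockout minus wild type with limma's SE. Array medians lay between 6.44 and 6.53. The probe set of Tbx21 read, in replicate order, 6.41, 6.60 and 6.46 in the knockout and 6.54, 6.62 and 6.60 in the wild type, so the groups overlapped and it gave no check of the genotype labels. Knockout replicates 1 and 2 and wild-type replicate 1 carried signal of both Xist and the Y-linked gene Eif2s3y, knockout and wild-type replicate 3 of Eif2s3y alone, and wild-type replicate 2 of Xist alone. Whether each array is 1 mouse is therefore unknown here, and for S1pr2, S1pr4, S1pr5 and Spns2 values are also given within classes and without the 3 arrays that carried both. The progenitor factors Gata1, Tal1, Gfi1b and Zfpm1 and the receptor Kit, defining genes of these progenitors, lay outside the 30% of probe sets of lowest mean, called dim below. In RNA of sorted cells, fewer cells of a type and less RNA per cell cannot be told apart.

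Over all 41345 probe sets, 0 (0%) had a limma adjusted p under 0.05, while 2033 (4.92%) had an unadjusted p under 0.05. Among the 10 S1P genes 0 passed the adjusted threshold, and 2, S1pr5 and Spns2, had an unadjusted p under 0.05, where 3.13% of all genes did. Both had lower signal in the knockout, where 1.7% of all genes passed this threshold on the lower side and 1.44% on the higher side. For 3 of the 10, S1pr5, Spns2 and S1pr4, all knockout arrays lay below all wild-type arrays, against 5.18% of all genes (8.7% with either direction counted). In all, 8 of the 10 differences were below 0, against 51.8% over all genes, and their median was -0.03, against -0.00 over all genes. Limma's SEs and p-values rest on the spread between arrays of a group, drawn toward that of all probe sets. With 3 against 3 the smallest exact permutation p is 0.1.

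**Figure D1:**
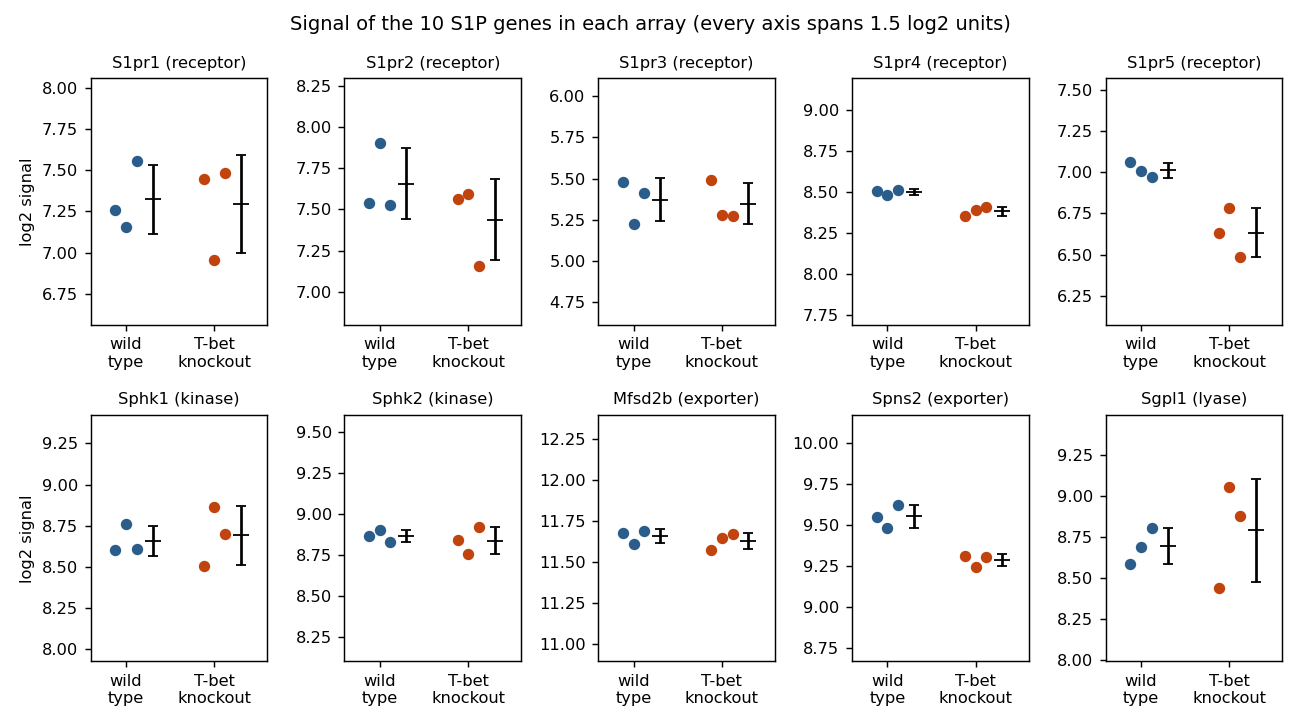
Log2 signal of each of the 10 S1P genes in the 3 wild-type arrays (blue) and the 3 T-bet knockout arrays (orange), in replicate order from left to right, with the group mean and SD in black; every vertical axis spans 1.5 log2 units. The groups are apart for S1pr4, S1pr5 and Spns2 and overlap for the other 7 genes.

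S1pr5, which couples to inhibitory and G12/13-type G proteins and is best known from NK cells and oligodendrocytes, had the largest difference of the 10. Its probe set, 17524671, gave 6.63, 6.78 and 6.48 in the knockout, in replicate order, and 7.06, 7.01 and 6.97 in the wild type. All knockout arrays lay below all wild-type arrays, and they were more spread, with replicate 3 the lowest. That array's 6.48 lay within the range of the array medians, 6.44 to 6.53. No detection calls were used, so whether the S1pr5 signal stood above background was not tested. The group means were 6.63 ± 0.15 and 7.01 ± 0.05, a difference of -0.38 (SE 0.11, 95% interval -0.63 to -0.13). On the linear scale the knockout signal was 0.769 times the wild-type signal (95% interval 0.644 to 0.917). Limma's unadjusted p was 0.00991 and its adjusted p was 1, and the exact permutation test, 2-sided, gave 0.1, the smallest it allows. An absolute difference of this size or more was seen in 2.51% of all genes.

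Since all knockout arrays lay below all wild-type arrays for S1pr5, the sign of its difference was fixed within the classes of sex-linked signal. The same holds for S1pr4 and Spns2 below, and the values within classes give sizes only. Among arrays with both Xist and Y-linked signal the 2 knockout arrays averaged 6.71 and the wild-type array read 7.06, and among arrays with Y-linked signal alone the values were 6.48 and 6.97. Without the 3 arrays that carried both, knockout replicate 3 differed from wild-type replicates 2 and 3 by -0.51, with the lone knockout array assumed to vary like the others. Over the 16 other settings tried, the S1pr5 difference ran from -0.51 to -0.30. Several of these, the filters, limma-trend, the replicate block and the mean of all probe sets of a gene, could not change it. In settings that kept at least 2 arrays per group, limma's unadjusted p ran from 0.00565 to 0.0343 and its adjusted p was at least 0.679.

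Because T-bet drives S1pr5 in NK cells, the 250 bases before its RefSeq start are shown, at chr9:21248444-21248693 on the minus strand of GRCm38.p6. They hold 69.2% G and C, against a median of 52.4% over all RefSeq promoter windows of that length, and are printed in lower case because none of the motifs searched was found there.
S1pr5: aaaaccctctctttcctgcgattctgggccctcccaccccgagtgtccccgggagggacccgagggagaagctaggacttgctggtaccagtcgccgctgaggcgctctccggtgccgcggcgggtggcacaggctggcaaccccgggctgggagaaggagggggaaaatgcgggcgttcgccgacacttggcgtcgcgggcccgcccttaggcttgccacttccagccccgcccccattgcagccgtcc

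The motifs were the T-box site AGGTGTGA, its shorter core AGGTGT, which lies inside it, and the GATA factor site AGATAA, each on both strands. They occurred in 1.12%, 11.8% and 9.99% of 32851 promoter windows. RefSeq windows were found for 9 of the 10 genes (14 windows, since Sphk1 had 5 start sites and Sphk2 had 2), and S1pr1 was without one. The T-box site was in 0 of the 14, its core in 1, that of Mfsd2b, and the GATA site in 3, those of Spns2 and of 2 overlapping Sphk1 windows. Such matches describe letters in these windows only.

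S1pr4, a receptor found mainly on blood and lymphoid cells, had the tightest values among the receptors. The probe set, 17243379, read 8.35, 8.39 and 8.41 in the knockout and 8.51, 8.48 and 8.52 in the wild type, in replicate order. All 3 knockout arrays lay below all 3 wild-type arrays, by a narrow margin. The difference was -0.12 (SE 0.08, 95% interval -0.31 to 0.08), limma's unadjusted p was 0.195 and its adjusted p 1. The gene's own SDs were small, 0.03 in the knockout and 0.02 in the wild type, so this SE rests mainly on the spread of all probe sets. The exact permutation p was 0.1. Within the class with both signals the difference was -0.14, among arrays with Y-linked signal alone -0.11, and without the 3 arrays with both signals -0.09.

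S1pr1, the receptor that carries T and B cells out of lymphoid organs and that holds endothelial junctions together, read 7.45, 6.95 and 7.49 in the knockout and 7.26, 7.16 and 7.56 in the wild type. Its groups overlapped fully, with the lowest array, replicate 2, and the second highest both from the knockout. The difference was -0.03 (SE 0.18), and the 95% interval, -0.46 to 0.40, reached 1.32-fold upward and 0.727-fold downward. The sign of this difference turned when some single arrays were left out.

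S1pr2, which signals mainly through G12/13 and opposes cell migration, read 7.56, 7.59 and 7.15 in the knockout and 7.54, 7.91 and 7.53 in the wild type. Knockout replicate 3 was its lowest array and wild-type replicate 2 its highest, while the other 4 arrays lay close together. The difference was -0.22 (SE 0.17, 95% interval -0.62 to 0.18), with a limma unadjusted p of 0.229 and an adjusted p of 1. Its size rested on these 2 arrays: it was -0.08 without knockout replicate 3 and -0.10 without wild-type replicate 2. Among arrays with both Xist and Y-linked signal the difference was 0.04, among those with Y-linked signal alone -0.38, and without the 3 arrays with both signals -0.56. With a block for these classes it was -0.14. S1pr2 lies on chromosome 9 as S1pr5 does, with 11 protein-coding genes starting between them in GRCm38.p6. Their order over the arrays differed: wild-type replicate 2 was the highest of the 6 for S1pr2 and the second highest for S1pr5.

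S1pr3, a receptor of vascular and cardiac cells, was the only one of the 10 genes in the dim 30%. It read 5.49, 5.28 and 5.27 in the knockout and 5.48, 5.22 and 5.41 in the wild type, with the groups overlapping and a difference of -0.03 (SE 0.11). A difference between dim signals can understate one in RNA. All 5 receptor differences were below 0, as were 51.8% of all genes, and 0 passed the adjusted threshold. Those of S1pr1 and S1pr3, both -0.03, turned sign in 3 of the other settings each. The 95% intervals of all 5 lay within 2-fold in either direction, as those of 98% of all genes did, and those of 3 within 1.5-fold, against 85.9% of all genes; S1pr2 and S1pr5 were the receptors whose intervals reached past 1.5-fold, both on the lower side.

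Spns2, the exporter that endothelial cells use to supply S1P to blood and lymph, had the second largest difference. Its probe set, 17265672, read 9.31, 9.25 and 9.31 in the knockout and 9.55, 9.49 and 9.63 in the wild type. The knockout arrays were close together and all lay below the lowest wild-type array. The difference was -0.27 (SE 0.09, 95% interval -0.48 to -0.06), which is 0.831 times the wild-type signal (0.719 to 0.961). Limma's unadjusted p was 0.0199, the adjusted p was 1, and the exact permutation p was 0.1. Absolute differences this large were seen in 7.25% of all genes.

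The unadjusted p of Spns2 did not stay under 0.05 in every setting. Leaving out knockout replicate 2 gave a limma unadjusted p of 0.0653 (difference -0.25), leaving out wild-type replicate 1 gave 0.0502 (-0.27), and leaving out wild-type replicate 3 gave 0.0724 (-0.23). With a block for the classes of sex-linked signal it was 0.0506 (difference -0.29), and without the 3 arrays that carried both Xist and Y-linked signal it was 0.184 (difference -0.25). Within the class of arrays with both signals the knockout mean was 9.28 and the wild-type array 9.55, and among arrays with Y-linked signal alone the values were 9.31 and 9.63. Spns2 and Sphk1 lie on chromosome 11, the chromosome of Tbx21.

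Mfsd2b, the exporter of red cells and platelets, was nearly level over the arrays. The probe set, 17279864, read 11.57, 11.64 and 11.67 in the knockout and 11.68, 11.61 and 11.69 in the wild type. The arrays of both groups interleaved, with an SD of 0.05 in the knockout and 0.04 in the wild type. The difference was -0.03 (SE 0.09) and its 95% interval, -0.23 to 0.17, kept the knockout signal between 0.850 and 1.13 times the wild-type signal.

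The 250-base windows of both exporters are set side by side because both hold a match. The T-box core was in 11.8% and the GATA site in 9.99% of all promoter windows searched. Windows of Sphk1, whose groups overlapped, held the GATA site as well. Mfsd2b is at chr12:4874360-4874609 and Spns2 at chr11:72475028-72475277, both on the minus strand of GRCm38.p6 as RefSeq gives them. Capitals mark the T-box core AGGTGT in Mfsd2b, 188 to 183 bases before the start, and the reverse complement of the GATA site AGATAA in Spns2, 119 to 114 bases before the start.
Mfsd2b: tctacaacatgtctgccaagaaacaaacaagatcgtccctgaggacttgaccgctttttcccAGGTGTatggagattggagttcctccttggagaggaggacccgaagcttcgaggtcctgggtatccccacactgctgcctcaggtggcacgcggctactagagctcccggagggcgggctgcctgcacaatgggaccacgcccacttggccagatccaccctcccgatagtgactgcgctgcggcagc
Spns2: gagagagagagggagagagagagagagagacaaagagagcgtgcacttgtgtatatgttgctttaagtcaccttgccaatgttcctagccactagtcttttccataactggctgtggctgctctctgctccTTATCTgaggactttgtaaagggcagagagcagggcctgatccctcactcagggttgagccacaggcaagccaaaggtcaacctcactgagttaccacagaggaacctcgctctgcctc

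Sphk1, the mainly cytosolic kinase, read 8.51, 8.86 and 8.70 in the knockout and 8.60, 8.76 and 8.61 in the wild type. The knockout held both its lowest and its highest array, and the difference was 0.04 (SE 0.12, 95% interval -0.25 to 0.32). Sphk2, the kinase of nucleus and mitochondria, read 8.84, 8.75 and 8.92 in the knockout and 8.86, 8.90 and 8.83 in the wild type. Its groups overlapped as well, with a difference of -0.03 (SE 0.09, 95% interval -0.24 to 0.19). The intervals of both kinases lay within 1.5-fold.

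Sgpl1, the lyase that cleaves S1P irreversibly, read 8.44, 9.05 and 8.87 in the knockout and 8.59, 8.69 and 8.81 in the wild type. It had the widest knockout spread of the 10 genes (SD 0.31 against 0.11 in the wild type), with replicate 1 the lowest and replicate 2 the highest of all 6 arrays. The difference was 0.10 (SE 0.17, 95% interval -0.31 to 0.50).

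**Figure D2:**
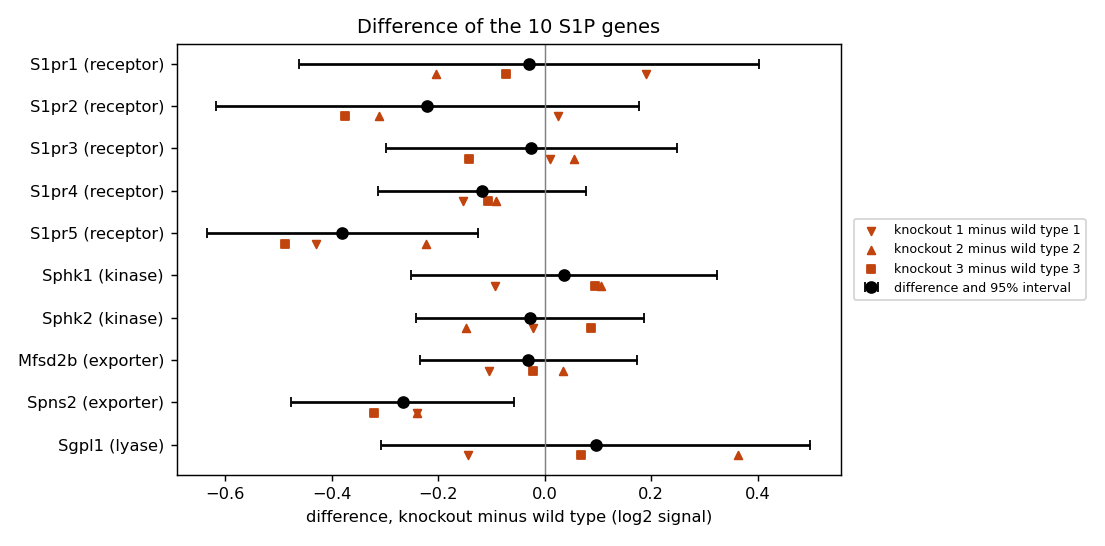
Difference in log2 signal, knockout minus wild type, for each of the 10 genes (black point) with limma's 95% interval (bar), and the difference between same-numbered arrays (orange symbols). The intervals of S1pr5 (-0.63 to -0.13) and Spns2 (-0.48 to -0.06) lie below 0 and those of the other 8 genes include it; these intervals are not adjusted for the number of genes tested.

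Genes of the wider pathway were taken from lists of textbook roles. Of 62 genes listed, 57 were measured, 0 passed the adjusted threshold and 1 had an unadjusted p under 0.05, where 3.13% of all genes did. That gene was Sgpp2, an S1P phosphatase, which was dim and read 5.57, 5.63 and 5.53 in the knockout and 5.70, 5.85 and 5.88 in the wild type. Its groups did not overlap, and the difference was -0.23 (SE 0.09, limma unadjusted p = 0.0449, adjusted p = 1). In 10 of 15 other settings, among them the replicate block, no gene of these lists had an unadjusted p under 0.05. These settings include the fit without dim probe sets, which left out Sgpp2 itself. The knockout arrays lay below the wild-type arrays for 3 of the 57 genes (5.18% of all genes) and above them for 0 (3.52% of all genes).

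Among 15 ceramide synthesis genes 8 differences were above 0 and 7 below, with a median of 0.01. The 2 of smallest p were Cers3, a ceramide synthase, at -0.18 (SE 0.11), whose knockout arrays all lay below the wild-type arrays, and Degs1, the desaturase that completes ceramide, at 0.15 (SE 0.10). For release of sphingosine and removal of S1P, 8 of 11 differences were below 0 (51.8% over all genes) and the median was -0.04. Beside Sgpp2 stood Plpp2, a lipid phosphate phosphatase, at -0.21 (SE 0.13). The 9 genes of sphingomyelin and ceramide conversion had a median of 0.00, with Samd8, a sphingomyelin synthase-related enzyme, at 0.12 (SE 0.11) and Sgms1, a sphingomyelin synthase, at -0.08 (SE 0.09).

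The 18 measured genes of receptor signalling and receptor control had a median of 0.05. Of their differences 13 were above 0 and 5 below, where 51.8% of all genes were below. Rac1, a small GTPase downstream of inhibitory G proteins, read between 10.88 and 10.89 in the knockout and between 10.91 and 11.04 in the wild type. Its groups did not overlap, with a difference of -0.10 (SE 0.09). Gnai1, an inhibitory G protein subunit, differed by 0.14 (SE 0.13). The 4 genes of S1P carriers and ABC transporters had a median of 0.00, with the transporters Abcg2 and Abcc1 at 0.08 (SE 0.11) and 0.03 (SE 0.10).

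Cd69, whose protein pulls S1pr1 from the cell surface, was singled out after the values were seen for its spread. It read 6.42, 6.18 and 7.65 in the knockout and 7.34, 6.19 and 7.47 in the wild type. The high arrays were knockout replicate 3 and wild-type replicates 1 and 3, so the spread ran within both groups, and the difference was -0.25 (SE 0.48).

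**Figure D3:**
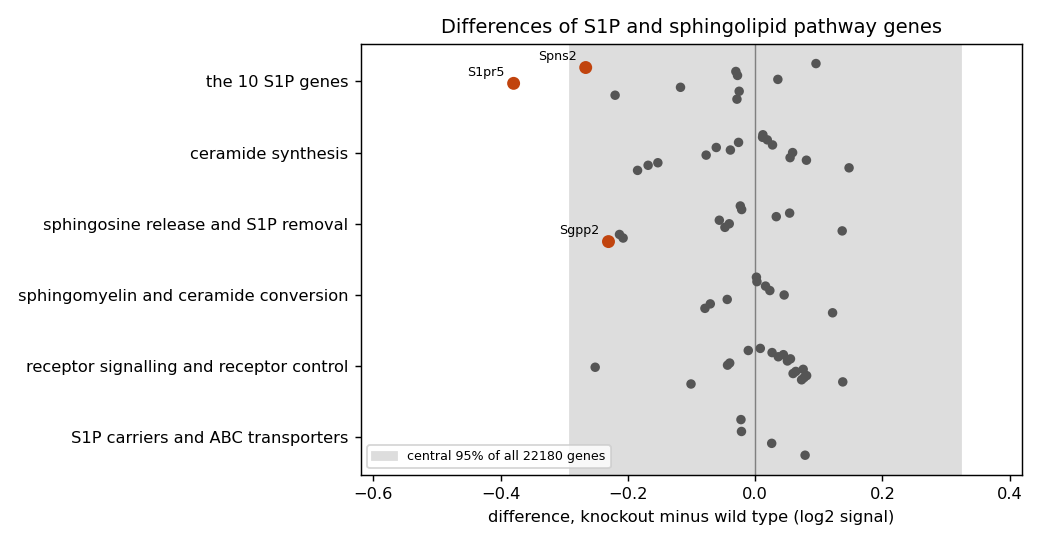
Difference in log2 signal, knockout minus wild type, for the 10 S1P genes and for 57 further genes in 5 pathway lists, 1 point per gene; orange points have a limma unadjusted p under 0.05 and the grey band holds the central 95% of all 22180 genes (-0.29 to 0.32). S1pr5 lies outside the band and Spns2 and Sgpp2 inside it.

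S1pr5 and Spns2 have known sites of expression in other cells of bone marrow, so markers of those cells are given beside them. For NK cells, 15 of 16 listed genes were measured and 9 of the 15 were dim. Their mean signal lay between 5.69 and 5.93 in the knockout and between 5.64 and 5.83 in the wild type, with the groups overlapping and a median difference of 0.07. Of the 15 differences 9 were above 0 and 6 below, where 51.8% of all genes were below. Prf1, the perforin gene, differed by 0.29 (SE 0.13) with its knockout arrays above the wild-type arrays. Nkg7, a granule protein gene, differed by -0.28 (SE 0.14). Patrolling monocytes also express S1pr5, and their 10 measured genes, 1 of them dim, had means of 6.80 to 6.92 in the knockout and 6.77 to 6.91 in the wild type. In that list Clec4a3 differed by 0.19 (SE 0.12) and Treml4 by -0.15 (SE 0.11). Since T-bet directs the NK cell programme, the NK list may not give a count of NK cells that is independent of genotype. The part of NK cells and patrolling monocytes in the S1pr5 values was not tested beyond the values given.

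Endothelial genes, measured for 12 of 12 and dim for 3, had means of 6.13 to 6.21 in the knockout and 6.18 to 6.32 in the wild type. Their median difference was -0.05, and 9 of 12 differences were below 0 (51.8% over all genes). For 3 genes the knockout arrays all lay below the wild-type arrays (5.18% of all genes). Stab2, a scavenger receptor of sinusoids, differed by -0.27 (SE 0.12) and Flt4, a vascular growth factor receptor, by -0.25 (SE 0.13). Flt4 lies on chromosome 11, the chromosome of Tbx21, and Stab2 on chromosome 10. Knockout replicate 3 was lowest and wild-type replicate 3 highest for this list, while Spns2 was lowest in knockout replicate 2 and highest in wild-type replicate 3. The part of endothelial RNA in the Spns2 values was not tested.

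Platelet-lineage genes had 11 of 13 differences below 0 (51.8% over all genes) with a median of -0.12, and means of 6.79 to 6.98 in the knockout and 6.94 to 7.17 in the wild type. F2rl3, a thrombin receptor, and P2rx1, an ATP-gated channel, differed by -0.29 (SE 0.08) and -0.57 (SE 0.19), each with groups apart and a limma adjusted p of 1. P2rx1 lies on chromosome 11, the chromosome of Tbx21, and F2rl3 on chromosome 8. Erythroid genes had 2 of 14 differences below 0 (51.8% over all genes) and 12 above, with a median of 0.08. The membrane skeleton genes Epb42 and Sptb stood at 0.25 (SE 0.14) and 0.16 (SE 0.11). The Mfsd2b difference of -0.03 lay between the medians of these 2 lists, as did the median over all genes, -0.00. Among 11 T cell genes, 4 of them dim, 5 differences were below 0 (51.8% over all genes), with a median of 0.05 (Cd4 0.27, Lat -0.27). Of 11 B cell genes, 4 of them dim, 3 were below 0 (51.8% over all genes), with a median of 0.16 (Cd79a 0.56, and Cr2, which was dim, 0.21). For 12 neutrophil genes, 5 of them dim, 7 differences were below 0 (51.8% over all genes) and the median was -0.01. The 2 neutrophil genes of smallest p were S100a8, which was dim, at 0.39 and S100a9 at 0.24. None of the 98 marker genes measured passed limma's adjusted p of 0.05, and 3 had an unadjusted p under 0.05, all in the platelet list, where 3.13% of all genes did. That count was 8 with the replicate block and without knockout replicate 2, 7 without wild-type replicate 2, 5 without knockout replicate 1 or 3 or wild-type replicate 1, and 2 without wild-type replicate 3.

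**Figure D4:**
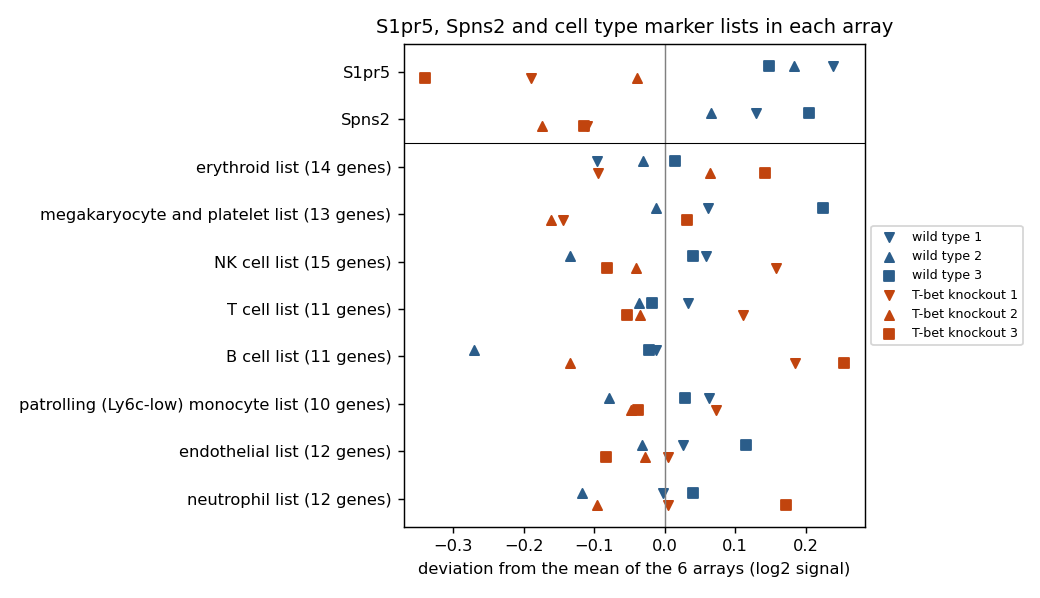
Deviation of each array from the mean of the 6 arrays in log2 signal, for S1pr5, Spns2 and the mean of each marker list; blue is wild type, orange T-bet knockout, and the symbol gives the replicate number. S1pr5 and Spns2 have all knockout arrays to the left of all wild-type arrays, and the 8 list means overlap between groups.

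The genes whose pattern over the 6 arrays was most like that of S1pr5 were sought among 14634 other genes outside the dim 30%, after each gene was centred on its mean. Likeness was the root mean square difference in log2 units. The 3 nearest were Jph2 (0.0359), Pla2g10 (0.0545) and Papln (0.0684), which code for a junctional membrane protein, a secreted phospholipase and a matrix protein. Their own differences were -0.39, -0.30 and -0.32, with limma adjusted p-values of 1. For Mfsd2b the nearest were Akirin2 (0.0118), Usp21 (0.0135) and Uvrag (0.0137), with differences of -0.02, -0.03 and -0.04. The measure describes these 6 arrays, and the S1pr5 pattern includes the difference between the groups.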

How the data were processed

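RNA of sorted MEP was measured on 6 Affymetrix arrays, 3 per group. The deposited table holds log2 signals per probe set. Per the submitters' processing notes, the authors used Affymetrix Expression Console, version 1.4.1.46; for the handling of background, normalization and probe set summaries, the sources used here give nothing. That the base is 2 was inferred from the range of the values. No detection calls were used, so probe sets at background could not be told from others, and the number of arrays limits the precision.

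Gene symbols came from the platform annotation (23521 of 41345 probe sets with 1 symbol, 1814 with several, 16010 not listed), updated by gene ID through RefSeq's GRCm38.p6 table (23328 matched); the array file names no build. Limma 3.58.1 (lmFit, eBayes) in R 4.3.3 was fitted to all probe sets without covariates, with Benjamini-Hochberg adjustment over all of them, and was tested on simulated data. Exact permutation tests were 2-sided.

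The main fit used no pairing. Replicate numbers met the criterion for pairs, which enters only as the replicate block tried as an alternative: deviations of same-numbered arrays correlated at 0.285, 0.116 and 0.115 over 1 probe set per gene, above 0.1; over all probe sets number 2 gave 0.057. The pairing comes from the data, since the labels do not say what a number shares.

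The members and lists were chosen with earlier results of these data known. Named genes were all members, from each list the 2 genes of smallest p, and the 3 genes nearest in pattern to S1pr5 and Mfsd2b, without predicted genes and Riken clones. Listed genes without a probe set of a single symbol were not analysed here. Alternatives were scaling, filters, weights, blocks and leaving out arrays; the fit without the 3 arrays carrying both Xist (above 8) and Eif2s3y (above 7) was added after seeing the data.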

Additional observations from a re-analysis of the deposited data

How the results depend on the processing

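S1pr5, Spns2, S1pr2 and S1pr4 kept a negative difference in all 16 alternatives, but several of these could not turn a sign. The filters, limma-trend, the replicate block and the mean of all probe sets of a gene left these differences unchanged. For S1pr5, Spns2 and S1pr4, whose groups were apart, leaving out arrays could not turn the sign either. None of the 10 genes was called at limma's adjusted p of 0.05 in any alternative run. Probe sets called over the whole array came to 1 after centring arrays on their medians, to 1 under array weights, and to between 0 and 2 on leaving out single arrays. The number of S1P genes with an unadjusted p under 0.05 was 1 with a block for the classes of sex-linked signal, 1 without the 3 arrays with both signals, and 1 to 2 when 1 array was left out. For the pathway lists it was 0 after centring, further quantile normalization, limma-trend, the replicate block and the sex-linked block. It was also 0 after the filter on dim probe sets, which took out Sgpp2, and 0 to 1 when 1 array was left out. For the marker lists it was 7 in the fit of probe sets with 1 symbol, 7 under array weights, 8 with the replicate block and 2 to 8 when 1 array was left out. The replicate block, which treats same-numbered arrays as pairs, gave S1pr5 -0.38 (limma unadjusted p = 0.0149) and Spns2 -0.27 (0.0295), both still under an unadjusted p of 0.05; beside the 2 counts just given, it moved no count of calls by over 1.5 times. Without the 3 arrays with both signals the sign turned for S1pr1 (0.129), Sphk2 (0.0512) and Mfsd2b (0.0172). When 1 array was left out, S1pr1 ran from -0.124 to 0.142, S1pr3 from -0.0993 to 0.0289, Sphk1 from -0.0515 to 0.128, Sphk2 from -0.068 to 0.0138 and Sgpl1 from -0.0361 to 0.270. The cause of these shifts was not tested. Over all probe sets the median difference stayed within 0.1 of 0 under each scaling tried.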
